A study of Mus musculus with 6 samples.

Results

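Inhibitory transmission was examined through 9 genes in RNA from mouse brain synaptosomes: the GABA-synthesising enzymes Gad1 and Gad2, the GABA transporters Slc32a1 and Slc6a11, and the interneuron markers Pvalb, Sst, Vip, Npy and Cck. They were chosen by name, as the non-control probes whose gene name on the array is one of these 9 symbols. They were measured by 11 of 55681 probes, and all 9 were among the 20975 genes tested. The study put 3 knock-in samples (KI1 to KI3) and 3 wild-type samples (WT1 to WT3) on an array each, all of total RNA labelled with Cy3. Its title concerns microRNAs that target the FMR1 transcript and a tremor and ataxia syndrome of FMR1 repeat carriers. The knock-in samples carry the word knock-out in their genotype field, and the name knock-in in their descriptions and in the series design. The labels name no allele, strain, age or sex for either group, and they do not say whether a sample is 1 animal or a pool, so the p-values measure only the spread between these samples. KI1 is listed with 0.0 µg of input RNA, and the other 5 samples with 0.2 µg.

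GABA is the main inhibitory transmitter of the forebrain. It is made from glutamate by 2 decarboxylases, loaded into vesicles by a proton-coupled transporter and cleared from the cleft by plasma-membrane transporters of neurons and astrocytes. Cortical interneurons are commonly divided by parvalbumin, somatostatin or vasoactive intestinal peptide, whereas the spiny projection neurons of the striatum also use GABA and lack these 3 markers. Synaptosomes are detached nerve endings, so their RNA is a mixture of terminals, attached postsynaptic fragments and glial processes. In such a mixture, fewer terminals of a type and less RNA per terminal cannot be told apart.

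None of the 9 genes passed limma's test between knock-in and wild type, and the knock-in and wild-type arrays overlapped for every one of them. The genes also differed among arrays within both groups. Gad1, Gad2 and Slc32a1 were highest on the replicate 1 array of each group. Pvalb, Npy and Cck, put together after their values were seen, were lowest on the same 2 arrays. The share of all genes with either arrangement was not counted. Over all genes tested, the deviations of KI1 and WT1 from their group means correlated at 0.40. Markers of striatal spiny neurons were also highest on those 2 arrays.

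Each probe is 60 bases long, and its first 30 bases are shown for the 2 synthesising enzymes and for Slc32a1 and Pvalb, the genes that a second probe reads at another place in the transcript.
Gad1 (base 2860 of the transcript): gagtgcccttaacataatgatttgaacata
Gad2 (base 5322 of the transcript): agtaacaggacaaagaagcaaaaacatcaa
Slc32a1 (base 1487 of the transcript): aattccactgcatgatgaactggacacaca
Slc32a1 (base 2645 of the transcript): aaactcatcttgtgcaatgtatccggtcgt
Pvalb (base 440 of the transcript): agtttgtttgtgttattttttactccccca
Pvalb (base 842 of the transcript): ctccaatgacactctatcaattgcttttga
On build mm9, the array annotation places the probe of Gad1 on chromosome 2 at 70439699 to 70439758 and that of Gad2 on chromosome 2 at 22549095 to 22549154. The Slc32a1 probes lie on chromosome 2 at 158440166 to 158440225 and 158441324 to 158441383. Those of Pvalb lie on the minus strand of chromosome 15 at 78021951 to 78022010 and 78021549 to 78021608. The Slc6a11 probe lies on chromosome 6 at 114199514 to 114199573, and the Npy probe spans 3763 bases of the same chromosome, from 49773743 to 49777505, and therefore crosses an intron. The remaining probes are on chromosome 16 for Sst (23889776 to 23889835), chromosome 10 for Vip (4699238 to 4699297) and chromosome 9 for Cck (121398943 to 121399002), each on the minus strand of that build as the array annotation gives it. The files do not say which probes lie in coding exons and which in UTRs.

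Levels are given as log2 of the processed signal relative to the 75th percentile of the same array, and they are compared between arrays for 1 probe at a time. That percentile was 883.2, 908.6 and 910.0 signal units in knock-in replicates 1 to 3, against 578.4, 580.2 and 822.6 in wild-type replicates 1 to 3. The 3 knock-in arrays and WT3 were on 1 slide, and WT1 and WT2 were on the other. All 11 probes were well above background on all 6 arrays, and 0 spots were saturated. Markers of presynaptic terminals (Snap25, Syt1, Syp and others, 9 of 9 measured) had summed levels of 759 to 882 times the 75th percentile in knock-in and 780 to 957 in wild type. Astrocyte markers were also present, with sums of 596 to 626 in knock-in and 628 to 695 in wild type. These sums rest mostly on the brightest marker, Aldoc, which read 8.56, 8.61 and 8.56 on KI1 to KI3, against 8.87, 8.83 and 8.69 on WT1 to WT3. Of the 11 astrocyte markers, 6 had a difference above 0 and 5 below, with a median of 0.037.

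The synthesising enzymes were high on the replicate 1 array of each group. Gad1, which encodes the decarboxylase GAD67 that supplies most of the GABA in the brain, read 4.56, 4.26 and 4.21 on KI1 to KI3, against 4.41, 3.68 and 4.11 on WT1 to WT3. WT2 was the lowest array, WT3 lay just below the knock-in arrays, and WT1 lay among them. The difference, knock-in minus wild type, was 0.27 on the log2 scale (SE 0.21, 95% interval -0.22 to 0.77, 1.21-fold), and 0.080 without WT2. Limma's adjusted p was 0.593 over all genes tested, and the two-sided exact permutation of group labels gave p = 0.4, where 0.1 is the smallest that 3 against 3 allow.

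Gad2, which encodes GAD65, the enzyme concentrated at nerve terminals, read 4.54, 3.68 and 3.55 on KI1 to KI3, against 4.32, 3.41 and 3.37 on WT1 to WT3. In each group the replicate 1 array stood well above the other 2, which lay close together. The difference was 0.22 (SE 0.35, 95% interval -0.63 to 1.08, limma's adjusted p = 0.788). Leaving out KI1 turned it to -0.084.

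Slc32a1, the vesicular GABA transporter that fills inhibitory synaptic vesicles, had the same arrangement. By its brighter probe it read 6.55, 5.92 and 5.86 on KI1 to KI3, against 6.42, 5.79 and 5.78 on WT1 to WT3. The difference was 0.11 (SE 0.26, 95% interval -0.50 to 0.73, limma's adjusted p = 0.857), and -0.11 without KI1. The dimmer probe, nearer the start of the transcript, read -0.54, -1.18 and -0.96 on KI1 to KI3, against -0.13, -2.29 and -1.26 on WT1 to WT3. Here WT1 was the highest array, and its gap to WT2 was the widest seen for any of the 11 probes. The difference on this probe was 0.33 (SE 0.52).

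Slc6a11, the plasma-membrane GABA transporter GAT-3 found mainly on astrocytes, varied most over the arrays among the 9 genes by their brightest probes, with a range of 1.33 on the log2 scale. It read 1.25, 1.3 and 0.97 on KI1 to KI3, against 1.26, 2.00 and 0.67 on WT1 to WT3. The highest and the lowest array were both wild type, and the 3 knock-in arrays lay between them. The difference was -0.14 (SE 0.32, 95% interval -0.92 to 0.64, limma's adjusted p = 0.861), and 0.21 without WT2. Of the 11 astrocyte markers, all measured, 4 were highest on WT2 as Slc6a11 was, and the other 7 were highest on another array.

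**Figure D1:**
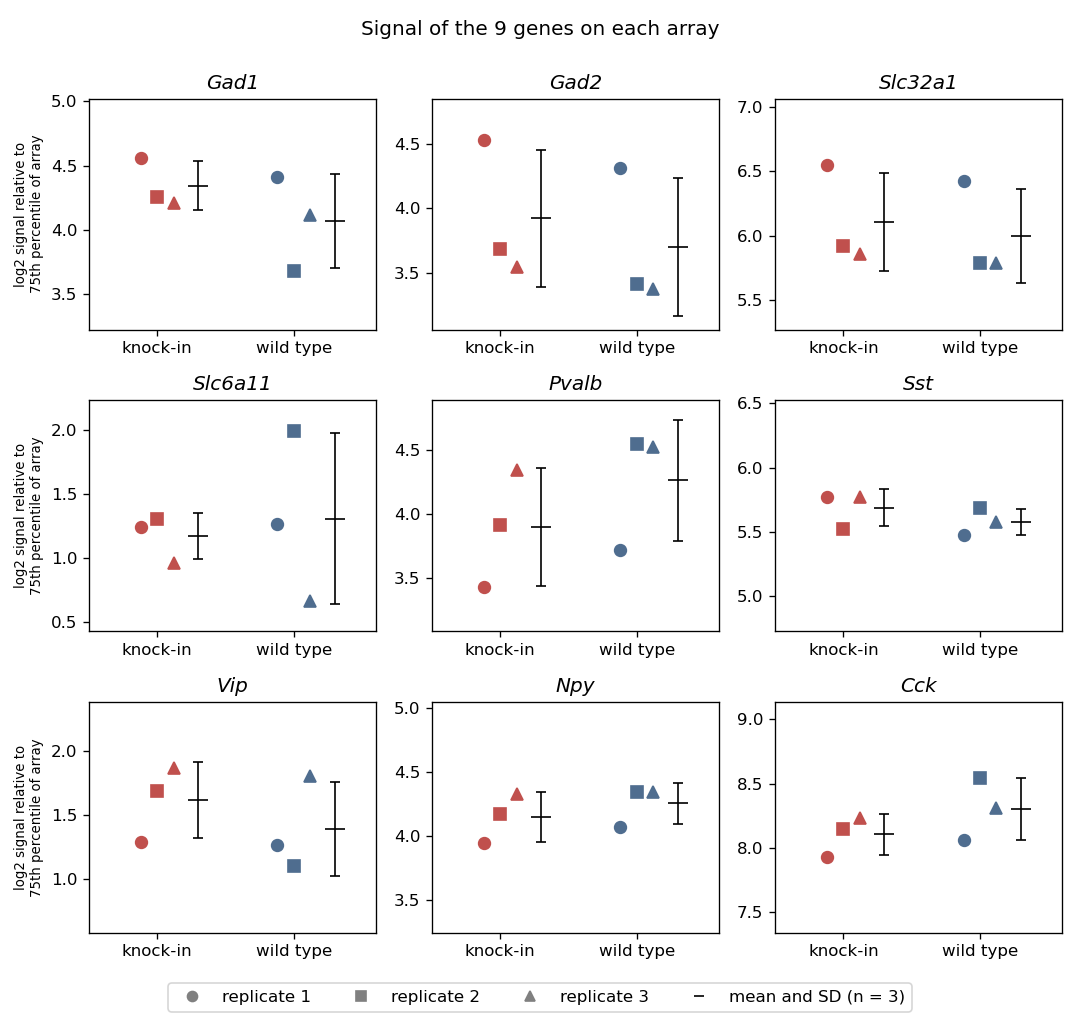
Log2 signal of the 9 genes relative to the 75th percentile of the array, for each of 3 knock-in and 3 wild-type arrays, with the mean and SD of each group beside the points; every panel spans the same height on the log2 axis. Replicate 1 of each group is the highest for Gad1, Gad2 and Slc32a1 and the lowest for Pvalb, Npy and Cck.

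Among the interneuron markers, Pvalb had the largest difference. It encodes parvalbumin, the calcium buffer of fast-spiking basket and chandelier cells. The brighter probe read 3.43, 3.92 and 4.35 on KI1 to KI3, against 3.72, 4.55 and 4.53 on WT1 to WT3. The lowest array was KI1, followed by WT1. The difference was -0.37 (SE 0.31, 95% interval -1.11 to 0.38, 0.776 of wild type, limma's adjusted p = 0.628). The dimmer probe read 1.3, 1.89 and 2.17 on KI1 to KI3, against 1.66, 2.23 and 2.18 on WT1 to WT3, with the 6 arrays in the same order, and with a difference of -0.24 (SE 0.26).

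Sst, which encodes somatostatin, the peptide of dendrite-targeting interneurons, was the steadiest of the 9 genes. Its probe is printed as 10 spots on every array, and the probes of the other genes as 1 spot each. Its steadiness therefore cannot be told apart from the number of spots. The 10 spots of Sst on 1 array had an SD between 0.027 and 0.075 on the log2 scale. The mean over the spots was 5.77, 5.52 and 5.77 on KI1 to KI3, against 5.48, 5.68 and 5.58 on WT1 to WT3. The groups overlapped, since KI2 lay below WT2 and WT3. The difference was 0.11 (SE 0.12, 95% interval -0.17 to 0.39, limma's adjusted p = 0.693), which bounds any change more tightly than for the other genes. The SD between arrays was 0.14 in knock-in and 0.10 in wild type, above the spread between spots.

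Vip, which encodes the vasoactive intestinal peptide of interneurons that mainly inhibit other interneurons, read 1.29, 1.69 and 1.87 on KI1 to KI3, against 1.27, 1.10 and 1.81 on WT1 to WT3. WT2 was the lowest array and WT3 lay among the knock-in arrays. The difference was 0.22 (SE 0.23, 95% interval -0.33 to 0.78, limma's adjusted p = 0.683).

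Npy, which encodes neuropeptide Y, found in neurogliaform and many somatostatin cells, read 3.94, 4.17 and 4.33 on KI1 to KI3, against 4.07, 4.34 and 4.34 on WT1 to WT3. Cck, which encodes cholecystokinin, is a marker of basket cells and is also made by many excitatory neurons. It read 7.93, 8.15 and 8.23 on KI1 to KI3, against 8.06, 8.55 and 8.31 on WT1 to WT3. For both genes KI1 was the lowest array and WT1 the next lowest. The differences were -0.11 for Npy (SE 0.14, 95% interval -0.45 to 0.24, limma's adjusted p = 0.752) and -0.20 for Cck (SE 0.16, 95% interval -0.58 to 0.18, limma's adjusted p = 0.603).

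Taken over the list, 5 of the 9 differences were above 0 and 4 below, with a median of 0.11. Over all genes tested, 40.9% of differences were above 0 and 59.1% below, with a median of -0.052. At an adjusted p under 0.05, 0 of the 9 genes were called, beside 0.00954% of all genes. At an unadjusted p under 0.05 it was also 0 of 9, beside 10.9% of all genes, or 4.45% higher and 6.40% lower in knock-in. The groups did not overlap for 0 of the 9 genes, beside 20.3% of all genes, or 7.87% higher and 12.5% lower in knock-in.

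The 2 slides can be compared through WT3, the wild-type array that shares a slide with the knock-in arrays. With slide as a block the differences were 0.23 for Gad1, 0.55 for Gad2, 0.33 for Slc32a1, -0.63 for Pvalb, 0.11 for Sst, -0.20 for Npy and -0.20 for Cck, all in the direction found without the block. For Slc6a11 the block gave 0.51 and for Vip -0.19, both turned. Limma's adjusted p was 0.973 for each of the 9 genes with the block, which rests on this 1 wild-type array.

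**Figure D2:**
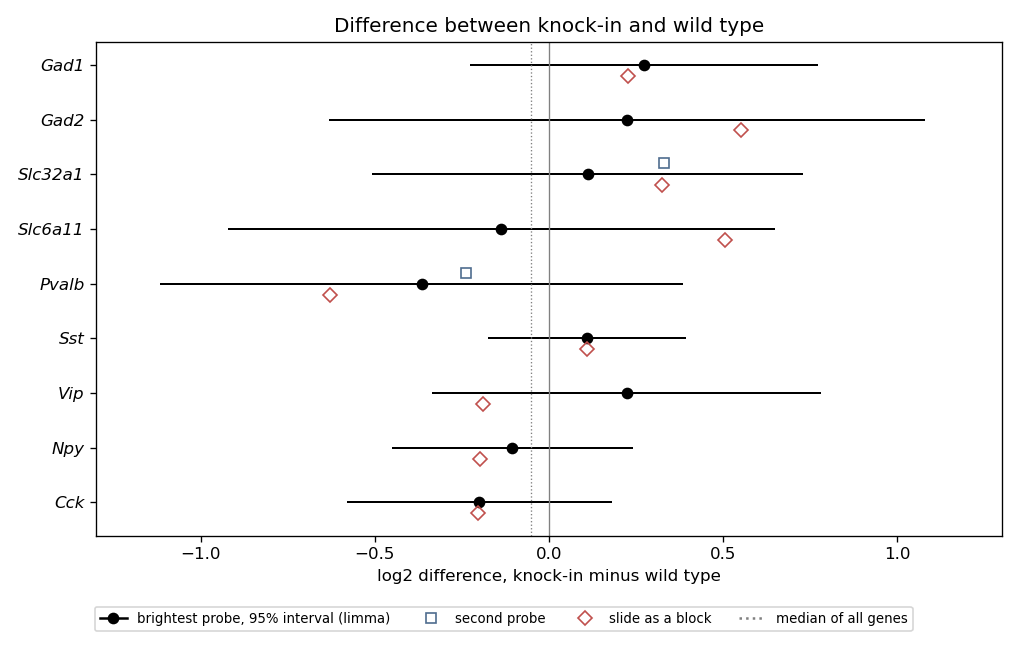
Log2 difference, knock-in minus wild type, of each gene with its 95% interval from limma, beside the second probe of Slc32a1 and Pvalb and the value with slide as a block. Every interval includes 0, and the block turns the sign of Slc6a11 and Vip.

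The variation shared by several genes ran across both groups. Set against their own 6-array means, Gad1, Gad2 and Slc32a1 together averaged 0.53, -0.070 and -0.15 on KI1 to KI3, against 0.36, -0.40 and -0.27 on WT1 to WT3. Pvalb, Npy and Cck, which were put together after their values were seen, averaged -0.40, -0.083 and 0.14 on KI1 to KI3, against -0.21, 0.32 and 0.23 on WT1 to WT3. The 6 arrays thus fell in opposite orders by the 2 sets, from KI1 and WT1 at one end to WT3 and WT2 at the other.

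Markers of striatal spiny neurons, which are GABAergic, moved with these values. Of 18 such markers 17 were measured, and 1, Ido1, did not pass the filter on dim probes. Their mean relative to the 6 arrays was 1.82, 0.51 and -0.89 on KI1 to KI3, against 1.23, -1.3 and -1.37 on WT1 to WT3. Their summed level ran from 105 to 416 times the 75th percentile over the knock-in arrays and from 97.1 to 300 over the wild-type arrays. The members of smallest p were Syndig1l, with 2.61, 1.5 and -0.89 on KI1 to KI3, against 1.41, -2.11 and -1.96 on WT1 to WT3, and Sh3rf2, detected above background on KI1, KI2 and KI3 and on 1 of the wild-type arrays. The dopamine receptor gene Drd2, a defining marker, was likewise detected on 3 arrays of the knock-in and 1 of the wild type. The same held for Six3, and these genes passed the filter through the knock-in arrays and 1 wild-type array, so the direction of the list is not counted. The mean above includes Sh3rf2, Drd2 and Six3, and its size rests in part on their dim readings, such as -6.06 and -6.18 for Six3 on WT2 and WT3. Each of the 17 was highest on KI1 among the knock-in arrays and on WT1 among the wild-type arrays, including the 14 well above background on all 6 arrays, and the groups overlapped for each. The part of striatal material in the levels of Gad1, Gad2 and Slc32a1 was not tested.

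Forebrain glutamatergic markers ran the other way, with a mean of -0.37, 0.0050 and 0.19 on KI1 to KI3, against -0.16, 0.089 and 0.25 on WT1 to WT3. All 12 were measured, and their summed level ran from 140 to 211 over the knock-in arrays and from 161 to 222 over the wild-type arrays. The replicate 1 array was the lowest of its group in both groups for 9 of the 12, as for Pvalb, Npy and Cck. It was also the lowest in both groups for 8 of the 9 presynaptic terminal markers, a list that shares Slc17a7 with this one. Their mean was -0.20, -0.0080 and 0.12 on KI1 to KI3, against -0.17, 0.12 and 0.14 on WT1 to WT3. The share of all genes with this arrangement was not counted. Tbr1, a transcription factor of deep-layer cortical neurons, gave -0.41 by the brightest probe and -0.97 by the other kept probe. Rorb, a marker of cortical layer 4, differed by -0.32 and 0.24, so its probes disagree in sign. Without KI1 and WT1, a setting chosen after seeing the data, the arrays of the 2 groups no longer overlapped for 6 of the 9 genes, beside 47.9% of all genes (17.5% higher and 30.4% lower in knock-in). Gad1, Gad2 and Slc32a1 then differed by 0.33, 0.22 and 0.10 and lay above wild type, and Pvalb, Npy and Cck differed by -0.40, -0.094 and -0.24 and lay below it. That comparison has 2 arrays a group, and limma's lowest adjusted p among the 9 genes was 0.631.

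**Figure D3:**
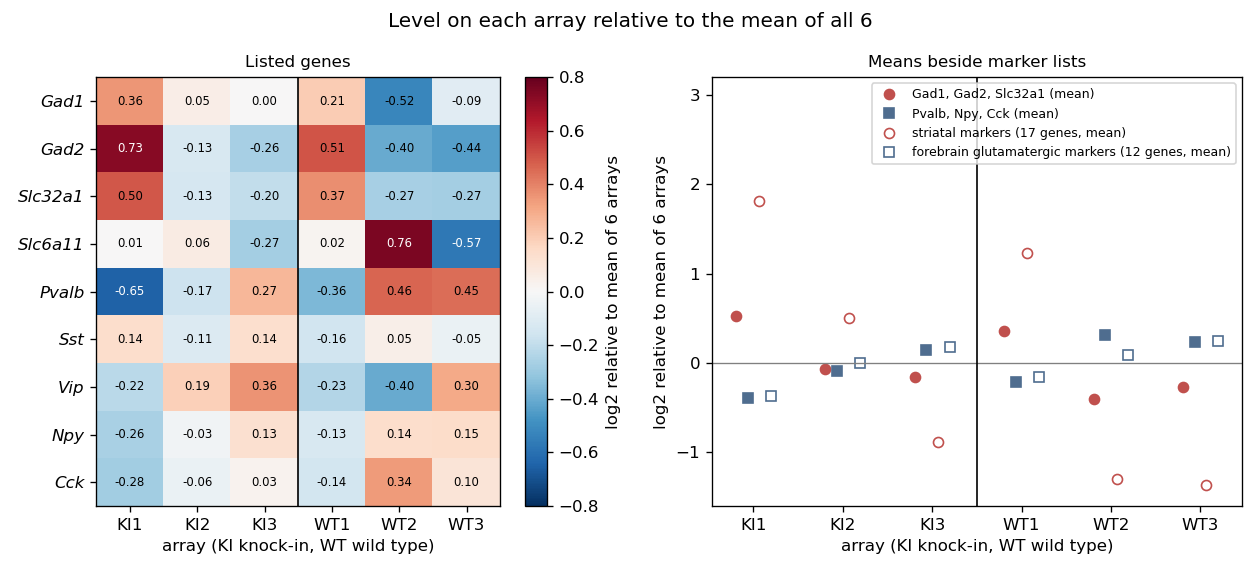
Left, the level of each gene on each array relative to its mean over the 6 arrays (log2). Right, the same quantity averaged over Gad1, Gad2 and Slc32a1, over Pvalb, Npy and Cck, and over 17 striatal and 12 glutamatergic markers: the Gad1, Gad2 and Slc32a1 mean and the striatal mean are highest, and the other means lowest, on KI1 and WT1. Of the 17 striatal markers, 14 were well above background on all 6 arrays.

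Other marker lists gave smaller or different shifts. Of thalamic markers 7 of 9 were measured, with means of 0.41, 0.078 and -0.21 on KI1 to KI3, against 0.26, -0.29 and -0.25 on WT1 to WT3. Of cerebellar markers 6 of 9 were measured, with means of 0.29, -0.097 and -0.033 on KI1 to KI3, against 0.43, -0.32 and -0.27 on WT1 to WT3. Of 10 choroid plexus markers 7 were measured, with means of 0.75, 0.66 and -0.51 on KI1 to KI3, against 0.87, -0.83 and -0.95 on WT1 to WT3. These means rest on some of the members, since only 3 of the 7 thalamic, 3 of the 6 cerebellar and 3 of the 7 choroid plexus genes were highest on the replicate 1 array of both groups. The Purkinje cell gene Pcp2 was lowest on them, with -0.85, -0.59 and -0.61 on KI1 to KI3, against -0.89, -0.50 and -0.65 on WT1 to WT3. Gabra6, a defining marker of cerebellar granule cells, did not pass the filter. Of the 7 thalamic genes 6, and of the 7 choroid plexus genes 4, were well above background on all 6 arrays. The thalamic mean includes Slitrk6, detected on 2 knock-in arrays and 1 wild-type array. Slitrk6 read -2.27, -4.04 and -5.58 on KI1 to KI3, against -2.59, -6.10 and -5.58 on WT1 to WT3. The choroid plexus mean includes Otx2, detected on 2 knock-in arrays and 1 wild-type array, and Ttr, on 3 and 1. Olfactory bulb markers, 6 of 7 measured, had means of 0.20, 0.26 and -0.45 on KI1 to KI3, against -0.093, 0.45 and -0.37 on WT1 to WT3. Over all arrays, 3 of the 6 were highest on KI1, 1 on KI2 and 2 on WT2. Within the groups, 2 of the 6 were highest on the replicate 1 array of both. Of hippocampal markers 7 of 9 were measured, and 4 of the 7 were highest on the replicate 1 array of both groups. Their means were 0.082, -0.118 and -0.125 on KI1 to KI3, against 0.069, 0.169 and -0.076 on WT1 to WT3. The part of any of these regions in the 9 genes was not tested.

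By root mean square distance over the 6 arrays, the genes nearest in pattern to the mean of Gad1, Gad2 and Slc32a1 were Akap9, an anchoring scaffold of protein kinase A (distance 0.052), the cadherin gene Cdh9 (0.059), the LIM-only transcription regulator Lmo3 (0.061), Vpreb1 (0.070) and Magee2 (0.071). Lmo3, for example, read 0.65, -0.10 and -0.20 on KI1 to KI3, against 0.31, -0.38 and -0.29 on WT1 to WT3 relative to its mean. For Slc6a11, the gene with the widest range, the nearest with a gene name were Pigr, a receptor of polymeric immunoglobulins (0.052), Cul9 (0.066) and Eme1 (0.070). These 8 genes are given as the nearest of 20975 on 6 arrays, with no test.

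The wider pathway was described by 5 lists of 95 genes, of which 89 were measured. Of these, 48 differences were above 0 and 41 below, with a median of 0.021, and 0 passed limma's adjusted threshold. At an unadjusted p under 0.05 there were 7 higher and 1 lower in knock-in, and 10 lay wholly above and 2 wholly below wild type, to be read beside the shares of all genes given above.

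Genes of GABA metabolism and transport were 18 of 18 measured, 10 above and 8 below 0, with a median of 0.021. Slc38a2, a neuronal glutamine carrier, read 3.37, 3.36 and 3.61 on KI1 to KI3, against 3.12, 2.41 and 3.1 on WT1 to WT3, wholly above it, a difference of 0.57 (SE 0.21, limma's unadjusted p = 0.0347 and adjusted p = 0.439, and 0.34 with slide as a block). The carrier Slc38a5 differed by -0.65, or -0.32 with slide as a block, and the glutamine synthetase gene Glul by -0.18, which the block turned to 0.016. The GABA transaminase gene Abat, named after its values were seen, differed by 0.021 and overlapped between groups.

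Transcription factors of interneuron development were 15 of 16 measured, 11 above and 4 below 0, with a median of 0.11. Sox6, needed for the maturation of parvalbumin and somatostatin cells, read -2.29, -2.21 and -2.15 on KI1 to KI3, against -2.48, -3.08 and -2.67 on WT1 to WT3, a difference of 0.52 (SE 0.17, limma's unadjusted p = 0.0187). Dlx1, a homeobox gene of the ventral forebrain, differed by 0.43 (SE 0.17, limma's unadjusted p = 0.0449). Both lay wholly above wild type. Sox6 differed by 0.23 with the normexp background correction. Dlx5 differed by 0.66 with overlap, by 1.06 with slide as a block and by 0.35 with normexp.

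Other interneuron markers were 27 of 30 measured, 14 above and 13 below 0, with a median of 0.018. Reln, which encodes the secreted glycoprotein reelin, read -2.31, -2.70 and -2.42 on KI1 to KI3, against -2.75, -3.43 and -2.96 on WT1 to WT3, wholly above it, with a difference of 0.57 (SE 0.20). Its size depended on the background correction, since normexp gave 0.15. Nxph1, a secreted neurexin ligand, gave 0.59 (SE 0.23) by the brightest probe, whereas the other kept probe gave -0.011. Crhbp, which encodes a binding protein of corticotropin-releasing hormone, differed by 0.28, and Akr1c18 by -0.92 with overlap, or -1.59 with slide as a block. Tac1, a tachykinin gene that striatal neurons also express, read 5.44, 3.58 and 2.62 on KI1 to KI3, against 5.13, 2.82 and 2.45 on WT1 to WT3, again high on both replicate 1 arrays (named after its values were seen).

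Receptors for these peptides were 13 of 15 measured, 6 above and 7 below 0, with a median of -0.0015. Npy1r, the neuropeptide Y receptor Y1, read 1.28, 1.33 and 1.24 on KI1 to KI3, against 1.57, 1.71 and 1.64 on WT1 to WT3, wholly below it, and its groups were each tight. The difference was -0.36 (SE 0.093, limma's unadjusted p = 0.00733), the smallest unadjusted p of the 5 lists, and also -0.36 with slide as a block. Sstr2, a somatostatin receptor, lay wholly above wild type, with -1.01, -0.92 and -0.98 on KI1 to KI3, against -1.41, -1.81 and -1.23 on WT1 to WT3, a difference of 0.51 (SE 0.16), or 0.26 with slide as a block. The receptor gene Adcyap1r1 differed by 0.30, or 0.099 with the block, and Vipr1 by 0.21.

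Genes of peptide processing and dense-core vesicles were 16 of 16 measured, 7 above and 9 below 0, with a median of -0.017. Pcsk1, a convertase that cleaves propeptides, read 0.40, 0.53 and 0.27 on KI1 to KI3, against -0.020, 0.11 and -0.010 on WT1 to WT3, wholly above it, with a difference of 0.37 (SE 0.11, limma's unadjusted p = 0.0123) and 0.41 with slide as a block. Ptprn2 differed by -0.40 and turned to 0.065 with the block. Cadps, a priming factor of dense-core vesicles, differed by -0.23, or -0.083 in the authors' deposited table. The amidating enzyme gene Pam differed by -0.64, or -0.22 with the block, where WT2 read 2.23 against 0.30 and 0.64 in the other wild-type arrays.

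**Figure D4:**
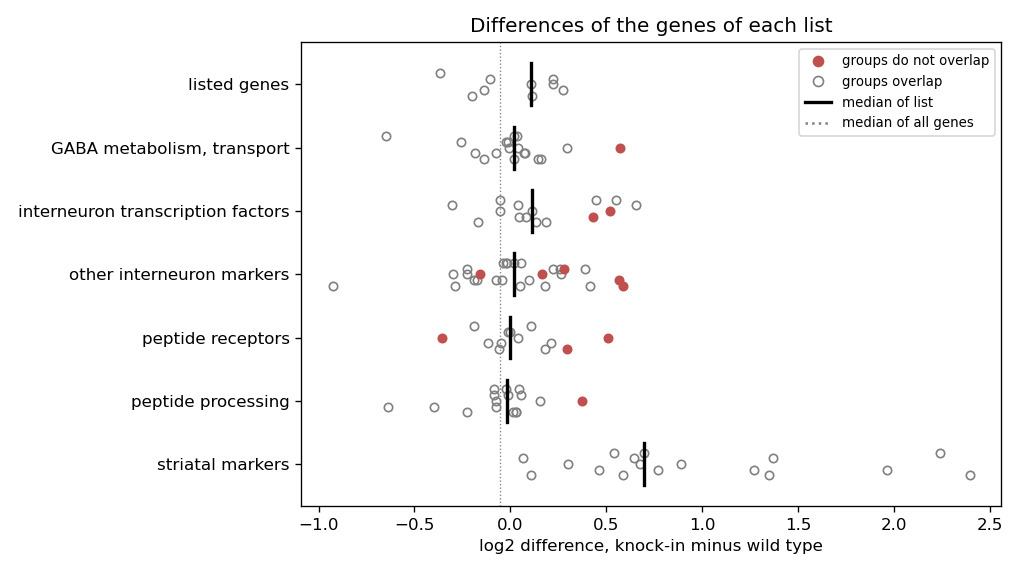
Log2 difference, knock-in minus wild type, of each measured gene of the 9-gene list, the 5 pathway lists and the striatal markers; filled points are genes whose groups do not overlap, bars are list medians and the dotted line is the median of all genes. The medians of the 9-gene list and the 5 pathway lists lie between -0.017 and 0.11; of the striatal markers, 3 passed the filter through the knock-in arrays and 1 wild-type array.

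Promoters of all 9 genes were found in the RefSeq table of build GRCm38.p6, as 10 windows around a start site. The cyclic AMP response element, bound by the activity-regulated factor CREB, was characterised in the rat somatostatin promoter. Its letters TGACGTCA were searched on both strands, with the shorter form TGACG. The full motif was present in the window of Sst and in 0 of the other 9 windows, and in 1.79% of all 32851 promoters. TGACG was present in Sst, Vip, Gad2 and Cck, and in 20.8% of all promoters, where the full motif also counts as a match. The 4 matches are shown with the motif in capitals, written CGTCA where it lies on the opposite strand.
Sst, chr16:23890874-23890903, minus strand: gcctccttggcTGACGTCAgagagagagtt
Vip, chr10:5639127-5639156, plus strand: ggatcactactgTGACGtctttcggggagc
Gad2, chr2:22622282-22622311, plus strand: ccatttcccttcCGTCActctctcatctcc
Cck, chr9:121495724-121495753, minus strand: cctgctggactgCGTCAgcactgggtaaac
The 4 genes did not share a pattern over the arrays. Beside them, 13 activity-regulated genes averaged 0.52, 0.66 and -0.013 on KI1 to KI3, against -0.25, -0.24 and -0.68 on WT1 to WT3 relative to the 6 arrays, whereas Sst read 0.14, -0.11 and 0.14 on KI1 to KI3, against -0.16, 0.048 and -0.055 on WT1 to WT3. A match describes these letters only, and the table has the Vip window on the plus strand of its build, whereas the array annotation has the Vip probe on the minus strand of mm9.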

How the data were processed

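Total RNA of 6 synaptosome samples was read on one-colour Agilent mouse arrays, 3 knock-in and 3 wild type by the sample descriptions. The deposited scanner files hold processed intensity per spot from Feature Extraction 10.7.3.1, per the file headers, background-subtracted by the authors' scanner software. The authors' deposited value table holds log2 values and served as an alternative. Here, log2 intensity was taken relative to each array's 75th percentile, control spots were left out, and spots of a probe were averaged. Outlier spots were left out only where another spot of the same probe was not an outlier, so those of single-spot probes stayed in. Probes well above background on at least 3 arrays were kept, and the brightest probe stood for its gene. Of the probe names, 27235 came through an accession, 3581 through a current symbol, 565 through a synonym and 24300 from the files. Knock-in was tested against wild type with limma 3.58.1 (R 4.3.3) at a Benjamini-Hochberg adjusted p of 0.05, a procedure tested on simulated data, and with exact permutation tests. The number of arrays limits the precision.

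The 9 genes and all lists were chosen with earlier results of these data known. Named were all 9 genes, up to 4 genes of smallest unadjusted p from each pathway list and up to 2 from each cell type list used, and the 5 nearest in pattern to each of 2 profiles, of which those with a gene name are given. Some genes that this rule names are not reported here. The alternatives were background correction, normalization, filter, probe rule, slide and replicate blocks, and leaving out arrays. No list was tested as a set.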

Additional observations from a re-analysis of the deposited data

How the results depend on the processing

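Over 18 alternatives, 0 of the 9 genes passed the adjusted threshold, with a lowest limma adjusted p of 0.385, and Gad1, Pvalb, Sst, Npy and Cck kept their direction in all 18. Several of the 18 could not turn a direction. Using no filter, requiring detection on all arrays, taking each kept probe on its own and the replicate block all left the differences of the 9 genes as they were. Averaging a gene's probes changed only Slc32a1 and Pvalb. Sizes were less steady: with 1 array left out, Gad1 ranged from 0.080 (WT2 left out) to 0.44, Pvalb from -0.64 to -0.13 (KI1 left out), Sst from 0.058 to 0.19, Npy from -0.20 to -0.0029 (KI1 left out), Cck from -0.32 to -0.080 (WT2 left out), Vip from 0.078 to 0.43, Gad2 from -0.084 to 0.53, Slc32a1 from -0.11 to 0.32 and Slc6a11 from -0.46 to 0.21. In the authors' table Cck was -0.0097. Slc6a11 turned to 0.51 with slide as a fixed block and 0.21 without wild-type replicate 2, Vip to -0.19 with slide as a fixed block, and without knock-in replicate 1 Gad2 turned to -0.084 and Slc32a1 to -0.11; the cause was not tested. The count of all genes past limma's adjusted threshold, 2 as reported, was 1 with normexp and 0 with no filter, with detection required on all arrays and with the authors' table (3490, 2250 and 2289 genes at an unadjusted p under 0.05). It was 5 when scaled to the median of detected probes, 5 with the mean of a gene's probes, 7 with slide as a fixed block, 5 with slide as a random block, and between 0 and 3 when 1 array was left out (0 without wild-type replicate 1 or 2). The 2 genes were among those called in each setting with 5. With normexp and with slide as a fixed block, 0 of the called genes were among the 2. The median difference of the 9 genes, 0.11 as reported, was 0.21 with quantile normalization, 0.22 in the authors' table, and between -0.084 (KI1 left out) and 0.18 (KI2 left out) when 1 array was dropped, with 0.0045 when WT3 was dropped. Without both replicate 1 arrays, chosen after seeing the data, it was 0.016, with 0 genes past the threshold and 1511 at an unadjusted p under 0.05. The labels number the replicates alike in both groups. Same-numbered arrays deviated with correlations of 0.40, -0.024 and 0.25, and differently numbered arrays with correlations from -0.40 to 0.15. Whether the numbers mark pairs was not settled, and the main fit did not take them as pairs. By their brightest probes, Gad1, Gad2 and Slc32a1 were always higher in knock-in between same-numbered arrays. Pvalb, Npy and Cck, put together after their values were seen, were always lower. The share of all genes that did so was not counted. The dimmer Slc32a1 probe was lower on KI1 than on WT1, at -0.54 against -0.13. For Npy, KI3 and WT3 were close, at 4.327 against 4.345. With the replicate block 0 genes passed limma's threshold, 2413 had an unadjusted p under 0.05, and Pvalb was the 1 of the 9 genes among them (adjusted p = 0.432). Limma's unadjusted p for Gad2 was 0.0675 with this block, against 0.55 without it.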

Other observations

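Markers of glia and vessels, cells that a synaptosome preparation can carry along, differed from list to list, and 0 of them passed limma's adjusted threshold. Of the measured genes, 6 of 11 astrocyte, 7 of 10 microglial, 8 of 9 oligodendrocyte and 1 of 7 endothelial markers were above 0, beside 40.9% of all genes, with medians of 0.037, 0.12, 0.27 and -0.15. Gfap, the intermediate filament gene of astrocytes, read 2.08, 2.32 and 1.73 on KI1 to KI3, against 1.67, 0.80 and 1.41 on WT1 to WT3, a difference of 0.75 (SE 0.26), while the astrocyte aldolase gene Aldoc differed by -0.22 (SE 0.097), so 2 markers of the same cells lay on opposite sides of wild type. Of the microglial genes, the complement gene C1qa differed by 0.32 and the chemokine receptor gene Cx3cr1 by -0.26, whereas a dimmer probe of Cx3cr1 gave 0.47. The myelin gene Mobp differed by 0.50 with overlap. Cldn5, a tight junction gene of brain endothelium, differed by -0.99 (SE 0.30) and lay wholly below wild type. Among activity-regulated genes, Fosb differed by 0.98 (SE 0.23) and Arc by 1.16 (SE 0.28), and 10 of the 13 were higher at an unadjusted p under 0.05, beside 4.45% of all genes. The part of these cells or genes in the values of the 9 genes was not tested.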
